A study of Mus musculus with 2 samples.

Results

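The thioredoxin and peroxiredoxin system was read as 10 genes: Txn1, Txnrd1, Txnip, Srxn1 and Prdx1 to Prdx6. They were taken by gene name from the 2 deposited expression tables, and all 10 were found in both, among 34400 genes listed in either table. The study compared CT26 colon tumours of mice under 2 treatments, with 1 single-cell library each. The control mouse tumour received anti-IgG and the antibody tumour received SLC7A11-Ab, an antibody to the cystine importer, each at 10 mg/kg every 2 days, starting when tumours measured 50 to 100 mm3. Both groups carried the same implanted CT26 line, a mouse colon carcinoma line, and the labels name no other agent. Strain, sex and age are not stated in the labels, and the design text speaks both of injection at the caecal junction and of subcutaneous growth. With 1 library per group no test across tumours was possible. Every interval below is a 95% interval that covers counting error only, and treatment cannot be told apart from any other difference between the 2 tumours or libraries.

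Thioredoxin passes electrons from NADPH, through thioredoxin reductase, to disulfides in other proteins. Peroxiredoxins are its main peroxide-destroying clients: a cysteine is oxidised by peroxide and reduced again by thioredoxin. Because thioredoxin reductase can also reduce cystine that has entered a cell, and because the system runs on NADPH and not on glutathione, it is known as a partner and backup of the glutathione system when cystine import through SLC7A11 is limited.

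Cells were placed in classes by UMIs of marker genes, since the tables carry no annotation. The tables hold 129044329 control and 143658800 antibody UMIs over 13910 and 12153 barcodes, of which 39 barcode sequences occur in both libraries. The gates took 31.8% of the 12326 control cells kept and 36.8% of the 10897 antibody cells. The remaining cells enter only counts over all cells and an alternative tumour-like gate without the keratin rule. That gate held 10537 and 7077 cells and is used only in the closing section. Tumour-like cells (2492 control, 1449 antibody) needed a keratin UMI and no Ptprc. Their Y-linked level was 0.763 and 2.14 counts per 1000000 UMIs of the class (CPM), against 124 and 132 CPM in macrophage-like cells. Macrophage-like (821 and 895 cells), neutrophil-like (128 and 200) and T-like cells (174 and 755) were the other classes that held 100 cells or more on both sides, and smaller classes are described only. Both samples are labelled as goblet cells, but over all cells kept the goblet marker Muc2 had 4 UMIs in each library and Agr2 had 0 and 1. The goblet marker with the most UMIs was Zg16, with 138 (control) and 62 (antibody). All goblet markers searched summed to 193 and 129 UMIs. Median depth was higher in the antibody library in each compared class, at 11505 and 18932 UMIs in tumour-like and 660.5 and 775.5 in neutrophil-like cells. Its part in the ratios below was not tested, apart from the thinned cells described in the closing section.

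The upstream sequences of 9 members were matched in RefSeq promoter windows of build GRCm38.p6, as 11 windows of 250 bases before a start site. An antioxidant response element, the site of the stress factor NRF2, was searched as TGACNNNGC and an E-box as CACGTG, on both strands and with no overlap between the motifs. The first occurred in 10.2% of all 32851 windows of this length and the second in 6.02%. Among the members, 1 of the 3 Txnrd1 windows and the Prdx1 window held the first motif, on the reverse strand, and the Prdx4 window held the second. These 3 stretches hold every match found in the members' windows. In tumour-like cells Txnrd1 had a log2 ratio (antibody over control) of 0.33, with a limit given below. Prdx1 had -0.48 and Prdx4 -0.79. A link between motifs and these ratios was not tested. The capitals mark the match, which began 92 bases before the Txnrd1 start, 133 before the Prdx1 start and 52 before the Prdx4 start. The Txnrd1 stretch is chr10:82859089-82859147 (plus strand), the Prdx1 stretch chr4:116685441-116685499 (plus strand) and the Prdx4 stretch chrX:155338482-155338537 (minus strand).
Txnrd1: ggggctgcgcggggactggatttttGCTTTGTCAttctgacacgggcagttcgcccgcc
Prdx1: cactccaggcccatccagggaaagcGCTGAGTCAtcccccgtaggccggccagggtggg
Prdx4: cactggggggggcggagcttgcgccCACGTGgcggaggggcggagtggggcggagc
A match is a run of letters and not a measured binding site. Windows without one say nothing about a factor's action on the gene elsewhere.

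In tumour-like cells the members went in different directions. Txn1 and Prdx5 differed between the libraries by less than counting error, and Prdx3 was slightly lower in the antibody library (log2 ratio -0.10, against 0.07 in cells with no UMI of another class's markers). The genes for the thioredoxin inhibitor and the peroxiredoxin repair enzyme were higher there, that for the reductase was higher except in cells with no UMI of another class's markers, and Prdx1, Prdx2, Prdx4 and Prdx6 were lower. None of the 10 members (0 higher, 0 lower) reached a 2-fold difference, which is the size used here for a call. Over the 15331 genes with at least 20 counts in this class, 11.0% were at least 2-fold higher and 4.36% at least 2-fold lower in the antibody library. The member median was a log2 ratio (antibody over control) of -0.06, and the median over all those genes was -0.18. A ratio near -0.18 was therefore that of the typical gene in tumour-like cells. Over all genes, macrophage-like cells had a median of -0.18, neutrophil-like cells 0.08 and T-like cells -0.14.

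**Figure D1:**
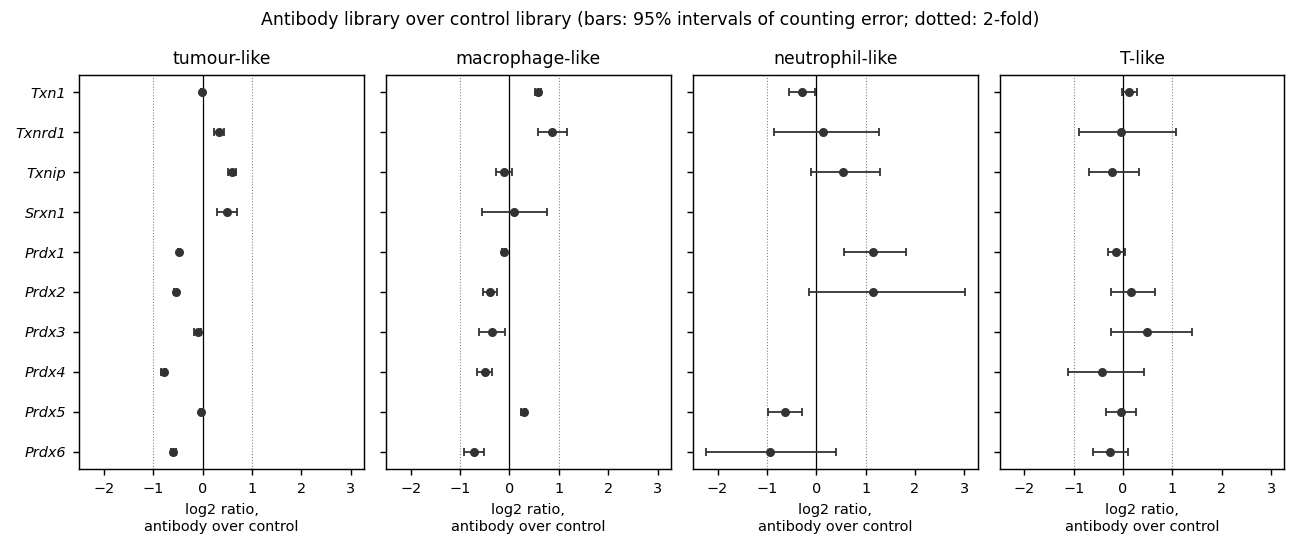
Log2 ratio of the antibody library over the control library (x axis) for each gene (y axis) in the 4 compared classes; points are ratios of class sums, bars 95% intervals of counting error, dotted lines a 2-fold difference, and genes with fewer than 20 counts over both libraries are left out. In tumour-like cells Txnrd1, Txnip and Srxn1 lie right of 0 and Prdx1, Prdx2, Prdx4 and Prdx6 left of it, while in neutrophil-like cells Prdx1 lies at 1.14.

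Txn1 encodes the cytosolic thioredoxin (chr4:57943373-57956411, minus strand, build mm10 with GENCODE M21 gene models, as for every gene position below). Its level in tumour-like cells was 1704 CPM (control) and 1684 CPM (antibody). The log2 ratio of -0.02 had an interval of -0.03 to 0.00. Macrophage-like cells went the other way from neutrophil-like cells: 944 and 1400 CPM in the former (log2 ratio 0.57, interval 0.51 to 0.63), 2004 and 1642 CPM in the latter (-0.29, interval -0.55 to -0.02). T-like cells had 1189 and 1298 CPM, a log2 ratio of 0.12 whose interval crossed 0. Among control classes of at least 20 cells, neutrophil-like cells had the highest Txn1 level, followed by tumour-like cells, and the intervals of these neighbours did not overlap. In the antibody library the 29 cDC1-like cells, cross-presenting dendritic cells, led at 2486 CPM, above tumour-like and neutrophil-like cells, whose intervals overlapped. Plasmacytoid dendritic-like cells had the lowest antibody level, 790 CPM, overlapping that of NK-like cells.

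Txnrd1 encodes the cytosolic thioredoxin reductase, a selenoprotein that keeps thioredoxin reduced (chr10:82833951-82897712, plus strand). In tumour-like cells it had 44.8 CPM (control) and 56.1 CPM (antibody), a log2 ratio of 0.33 (interval 0.23 to 0.43). In tumour-like cells with no UMI of another class's markers (1717 and 311 cells) the ratio was 0.02. The 7 macrophage markers summed to 34.5 CPM in control and 94.6 CPM in antibody tumour-like cells, and their part in the ratio was not tested. The largest difference of the gene among compared classes was in macrophage-like cells, 39.8 and 72.6 CPM, a log2 ratio of 0.86 (interval 0.58 to 1.16). Under median-of-ratios scaling this value was 1.04 and so passed 2-fold. The smaller monocyte-like class (62 and 324 cells) also had a higher antibody level, 40.2 and 105 CPM, from 6 and 110 counts. Neutrophil-like cells had the highest Txnrd1 level in both libraries, 131 and 146 CPM, from 12 and 28 counts, with intervals that overlapped those of the next class. T-like and NK-like cells were lowest among the control classes at 36.1 and 34.3 CPM, but the intervals of neighbouring classes overlapped throughout the control order. T-like cells had 36.1 and 36.6 CPM and showed no difference beyond counting error (log2 ratio -0.04, interval -0.90 to 1.08).

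Txnip encodes the thioredoxin-interacting protein, an arrestin that binds reduced thioredoxin and lowers glucose uptake (chr3:96557957-96561883, plus strand). Tumour-like cells had the lowest control level of all 8 classes, 57.6 CPM, and 86.8 CPM in the antibody library. The log2 ratio of 0.59 had an interval of 0.51 to 0.68, and 17.4% of genes tested in this class had a higher one. Neutrophil-like cells were at the other end, with 261 CPM (control) and 387 CPM (antibody) (log2 ratio 0.55, interval -0.12 to 1.29). Macrophage-like cells had 164 and 153 CPM and T-like cells 125 and 108 CPM, both differences within counting error. The Txnip exons share 606 bases with Gm15441 on the opposite strand. Gm15441 had 42 and 54 counts in tumour-like cells, against 1888 and 2673 for Txnip, and whether the authors' counting used the strand is not given in the sources used here.

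Srxn1 encodes sulfiredoxin, which repairs peroxiredoxins whose cysteine was oxidised too far (chr2:152105516-152111376, plus strand). It was the member with the fewest UMIs. Tumour-like cells had 11.0 CPM (control) and 15.6 CPM (antibody), from 362 and 480 counts (log2 ratio 0.50, interval 0.30 to 0.70). With cells thinned to 1000 UMIs that ratio was -0.08. Macrophage-like cells had 9.79 and 10.5 CPM, a difference within counting error. Srxn1 had 0 counts in control T-like, NK-like and neutrophil-like cells, and 10, 1 and 1 counts in their antibody counterparts. At the control T-like depth of 304369 UMIs, a count of 0 was within the range that the antibody level of 4.46 CPM allows, so no fold is given.

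**Figure D2:**
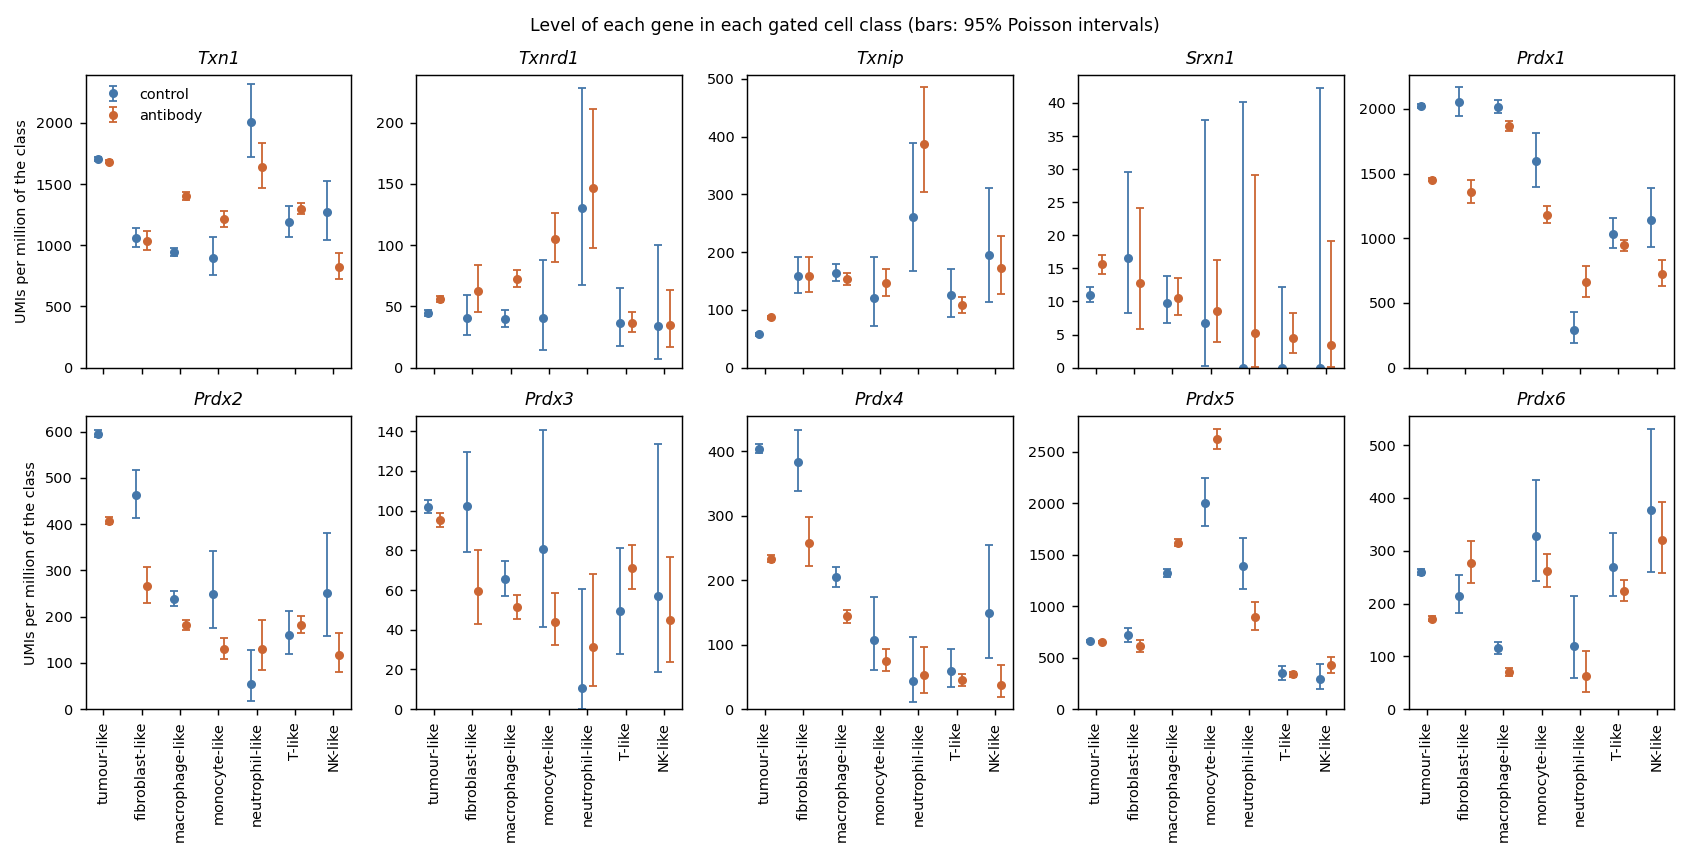
Level of each gene in CPM (y axis, linear, starting at 0) in 7 gated cell classes (x axis) of the control and the antibody library; points are class sums and bars 95% Poisson intervals. Neutrophil-like cells are highest for Txnip and lowest for Prdx1 in the control library, and monocyte-like cells are highest for Prdx5 in both.

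Prdx1 and Prdx2 encode the abundant cytosolic peroxiredoxins of the typical 2-Cys kind, which depend on thioredoxin. In tumour-like cells Prdx1 (chr4:116685544-116700822, plus strand) had 2023 CPM (control) and 1454 CPM (antibody). The log2 ratio of -0.48 had an interval of -0.49 to -0.46. Macrophage-like cells held nearly the same control level, 2018 CPM, and 1869 CPM in the antibody library, a log2 ratio of only -0.11 (interval -0.16 to -0.07). T-like cells had 1035 and 944 CPM, a difference within counting error. The ranking of classes for Prdx1 thus differed between libraries. Control fibroblast-like, tumour-like and macrophage-like cells had overlapping intervals at the top, but the control fibroblast-like cells held tumour genes near the tumour-like level. Summed over the 7 tumour genes not used for gating, they had 546 CPM, against 601 CPM in control tumour-like cells. Antibody fibroblast-like cells had 73.5 CPM of these genes, against 276 CPM in antibody tumour-like cells. The Y-linked level of fibroblast-like cells was 42.1 CPM (control) and 137 CPM (antibody). For Prdx1 in the antibody library, macrophage-like cells stood above all others.

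Neutrophil-like cells had the lowest Prdx1 level of any class in both libraries, 294 CPM (control) and 659 CPM (antibody), the latter overlapping the NK-like interval. They held 27 and 126 Prdx1 counts, a log2 ratio of 1.14 (interval 0.56 to 1.82). Prdx2 had 5 and 25 counts there (54.5 and 131 CPM), a log2 ratio of 1.15 whose interval of -0.15 to 3.01 crossed 0. These were the 2 members at least 2-fold higher of the 7 with 20 counts in neutrophil-like cells, where 18.0% of 1804 genes were at least 2-fold higher and 7.04% at least 2-fold lower. Neither call held under every alternative. Without doublet removal (138 and 211 cells) the Prdx1 ratio was 0.02 and the Prdx2 ratio -0.14. Prdx1 also fell short of 2-fold with the marker minimum doubled (0.58) and as a mean over scaled cells (0.60), and was called in 3 of 6 alternatives, against 5 of 6 for Prdx2. Transcripts of other cells were also not even between these neutrophil-like groups. The 7 macrophage markers summed to 305 CPM (control) and 779 CPM (antibody). The 7 tumour genes not used for gating summed to 54.5 and 78.4 CPM, from 5 and 15 counts. This was 9.07% and 28.5% of their level in tumour-like cells, which was itself 601 and 276 CPM. The 7 neutrophil markers summed to 94447.5 and 50187.5 CPM. The part of these differences in the Prdx1 and Prdx2 ratios was not tested. In cells with no UMI of another class's markers (84 and 88 cells) the Prdx1 ratio was 1.34 and the Prdx2 ratio 1.17. Within the antibody neutrophil-like cells, those with hypoxia marker UMIs had 921 CPM of Prdx1 and those without had 478 CPM, a log2 ratio of 0.94 (interval 0.42 to 1.48). The corresponding control cells had 311 and 277 CPM, with an interval across 0.

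Prdx2 (chr8:84969587-84974834, plus strand) was highest in tumour-like cells in both libraries, at 596 CPM (control) and 407 CPM (antibody), with intervals that overlapped those of the small classes next in order. The log2 ratio of -0.55 had an interval of -0.58 to -0.52. It was also lower in antibody macrophage-like cells, 239 and 182 CPM (-0.39, interval -0.53 to -0.26). In T-like cells it had 161 and 182 CPM, a difference within counting error. Its exons share 173 bases with Junb and 177 with Rnaseh2a, both on the opposite strand. Junb, an immediate early transcription factor gene, had 29.2 CPM in control and 1028 CPM in antibody tumour-like cells, and Rnaseh2a 99.1 and 54.2 CPM. Without knowledge of the strand setting, the part of these neighbours in the Prdx2 counts was not tested. A further row for the copy Prdx2-ps1 had 23 and 27 UMIs over all barcodes.

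Prdx3 encodes the mitochondrial 2-Cys peroxiredoxin (chr19:60864051-60874556, minus strand). Tumour-like cells had 102 CPM (control) and 95.1 CPM (antibody), a log2 ratio of -0.10 (interval -0.17 to -0.03) that lay close to that of the typical gene. Macrophage-like cells had 65.5 and 51.3 CPM (-0.35, interval -0.62 to -0.09). T-like cells had 49.3 and 71.0 CPM, from 15 and 159 counts, with an interval across 0. Neutrophil-like cells held 1 and 6 counts.

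Prdx4 encodes the peroxiredoxin of the endoplasmic reticulum, where it takes part in disulfide formation (chrX:155323918-155340754, minus strand). It had the largest difference of any member in tumour-like cells, 404 CPM (control) and 233 CPM (antibody). The log2 ratio of -0.79 had an interval of -0.83 to -0.75, and 7.84% of genes tested had a lower one. Macrophage-like cells had 204 and 144 CPM (-0.51, interval -0.66 to -0.35). T-like cells were low in both libraries, at 59.1 and 45.1 CPM, with a difference within counting error. Tumour-like and fibroblast-like cells had the highest control levels, 404 and 383 CPM, and their intervals overlapped. The smaller fibroblast-like class (139 and 76 cells) had 383 CPM (control) and 257 CPM (antibody), from groups unlike in their tumour genes (above).

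Prdx5 encodes a peroxiredoxin of mitochondria, peroxisomes and cytosol (chr19:6906697-6910106, minus strand). Tumour-like cells had 661 and 650 CPM, and the log2 ratio of -0.02 had an interval of -0.05 to 0.00. Macrophage-like cells had 1323 CPM (control) and 1615 CPM (antibody) (0.29, interval 0.23 to 0.34), and neutrophil-like cells 1394 and 899 CPM (-0.63, interval -0.97 to -0.29). Monocyte-like cells were highest in both libraries, at 1999 and 2619 CPM, with intervals above those of every other class. Antibody cDC1-like cells were at the other end, at 236 CPM. T-like cells had 348 and 338 CPM. Its exons share 409 bases with Trmt112 on the opposite strand, which had 283 and 281 CPM in tumour-like cells and 208 and 196 CPM in macrophage-like cells.

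Prdx6 encodes the 1-Cys peroxiredoxin, which is reduced with glutathione and not by thioredoxin, and which also has phospholipase activity (chr1:161240112-161251219, minus strand). It was the only member with a negative log2 ratio in each of the 4 compared classes, and 323 of the 1613 genes with 20 counts in every class had the same. Tumour-like cells had 259 and 171 CPM (-0.60, interval -0.65 to -0.55) and macrophage-like cells 116 and 70.2 CPM (-0.72, interval -0.93 to -0.51). In T-like cells the levels were 269 and 225 CPM, and in neutrophil-like cells 120 and 62.8 CPM from 11 and 12 counts, with intervals across 0 in both. NK-like cells (43 and 173) had the highest level in each library, 377 and 321 CPM, but their interval overlapped that of the next class.

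Summed over Prdx1 to Prdx4, where the more abundant genes weigh most, tumour-like cells had 3125 CPM in the control (interval 3106 to 3144), and under the antibody 2190 CPM (2173 to 2206). Macrophage-like cells had 2527 and 2246 CPM, T-like cells 1304 and 1242 CPM with overlapping intervals, and neutrophil-like cells 403 and 873 CPM. Without doublet removal the neutrophil-like Prdx1 ratio was 0.02, as given above. Summed over all 10 members, tumour-like cells had 5862 and 4853 CPM and macrophage-like cells 5124 and 5566 CPM. Neutrophil-like cells then had 4314 and 4016 CPM and T-like cells 3272 and 3252 CPM, both with overlapping intervals. No member reached 2-fold in macrophage-like cells (0 of 10, with a median of -0.11), where 8.54% of 11093 genes were at least 2-fold higher and 5.16% lower. The same held for T-like cells (0 of the 9 members with 20 counts, median -0.05), with 10.9% and 8.28% of 8827 genes. In neutrophil-like cells the member median was 0.13. Of 1613 genes read in all 4 classes, 85 (5.27%) were at least 2-fold higher under the antibody in every one of them. By contrast, 0 were at least 2-fold lower in every class. No member was among the 85, but only the 7 members with 20 counts in neutrophil-like cells could have been.

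Members also differed between tumour-like cells of different state within 1 library, where treatment is held constant. State gates were ranges of a marker sum in cells thinned to 3000 UMIs, with at least 3 marker UMIs, and not cell types. Mitotic cells numbered 816 of 2422 (control) and 434 of 1400 (antibody). Prdx4 was higher in them in both libraries, at 488 CPM against 340 CPM outside the gate in the control (log2 ratio, in over out, 0.52) and 288 against 196 CPM in the antibody library (0.56). Prdx5 was lower in mitotic cells, 537 against 758 CPM for the control (-0.50) and 578 against 699 CPM for the antibody (-0.27). Txnip had log2 ratios of -0.28 and -0.22, Prdx2 of -0.28 and -0.22, and Txn1 of 0.15 and 0.16. None of these intervals crossed 0. Median depth also differed with the gate, at 15298 UMIs in and 10325 outside it in the control.

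Hypoxic cells were 33.1% of control and 56.4% of antibody tumour-like cells. Prdx3 had the largest difference there, 76.9 CPM in the gate against 113 CPM outside it in the control (log2 ratio -0.56, interval -0.68 to -0.44) and 71.8 against 119 CPM in the antibody library (-0.73, interval -0.84 to -0.62). Txn1 (-0.27 and -0.34), Prdx1 (-0.28 and -0.22) and Prdx4 (-0.30 and -0.35) were lower in hypoxic cells too. Prdx5 alone among members had an interval above 0 in both libraries, with log2 ratios of 0.20 and 0.10. The median over all genes was -0.09 (control) and -0.11 (antibody). Txnip had log2 ratios of -0.06 and -0.05 with intervals across 0, but with the state marker minimum doubled they were -0.24 (interval -0.47 to -0.03) and -0.19 (-0.32 to -0.06).

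Interferon-marked cells were 4.13% of control and 34.4% of antibody tumour-like cells. Txnip was higher in them in both libraries, 79.5 against 56.2 CPM in the control (log2 ratio 0.51, interval 0.21 to 0.79) and 103 against 76.0 CPM in the antibody library (0.44, interval 0.33 to 0.55). Antibody neutrophil-like cells with interferon markers also had more Txnip, 572 against 213 CPM from 53 and 21 counts (log2 ratio 1.40, interval 0.67 to 2.23). Antibody macrophage-like cells with these markers had less, 140 against 162 CPM (-0.21, interval -0.41 to -0.00). With the state marker minimum doubled this ratio was -0.08 and its interval crossed 0 (-0.37 to 0.20). In control macrophage-like cells the interval crossed 0 (162 against 164 CPM). The gate in neutrophil-like and macrophage-like cells was 1 marker UMI in cells thinned to 500 UMIs. Prdx3 had a log2 ratio of 0.37 in antibody tumour-like cells (interval 0.26 to 0.48) and 0.08 in the 100 control cells of the gate, whose interval crossed 0.

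**Figure D3:**
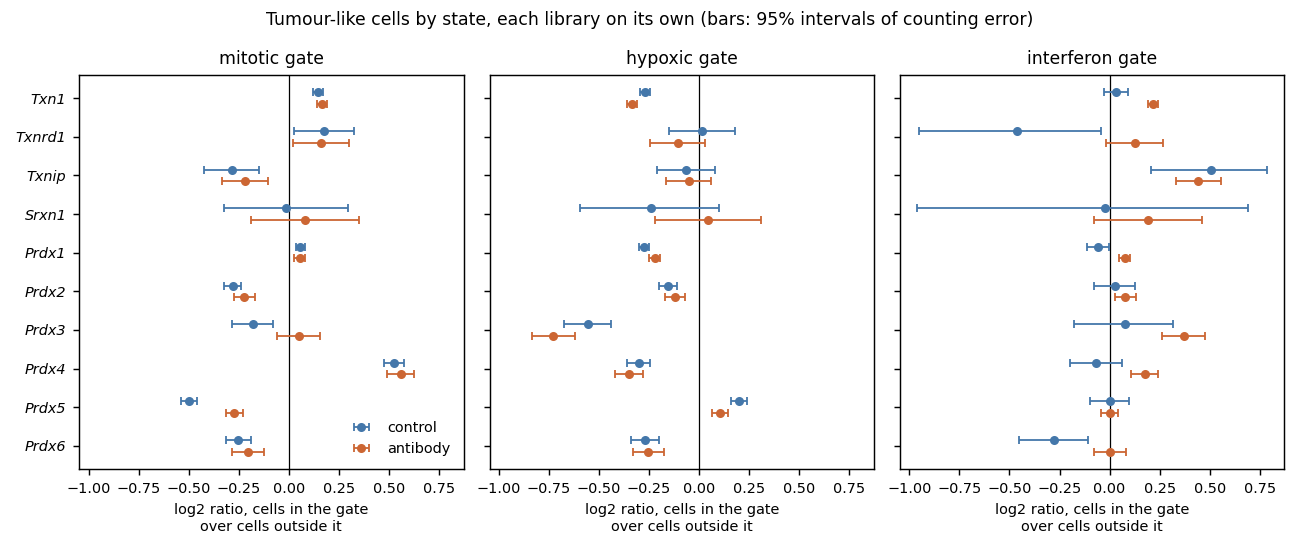
Log2 ratio of tumour-like cells inside a state gate over those outside it (x axis) for each gene (y axis), computed in the control and the antibody library separately; points are ratios of summed counts and bars 95% intervals of counting error. Prdx4 lies right of 0 in the mitotic panel and Prdx3 left of 0 in the hypoxic panel in both libraries.

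The ratios between libraries were also read on each side of these gates. Txnip had an antibody over control log2 ratio of 0.62 in hypoxic and 0.61 in other tumour-like cells, and 0.37 in interferon-marked and 0.44 in other cells. Prdx4 had -0.76 in hypoxic and -0.71 in other cells, and -0.76 in mitotic and -0.80 in other cells. Prdx1 had -0.39 and -0.45 in and outside the hypoxic gate, and Prdx6 -0.54 and -0.55. For these 3 genes the sides of the interferon gate lay further apart. The ratios were -0.38 in and -0.51 outside it for Prdx1, -0.62 and -0.87 for Prdx4, and -0.33 and -0.61 for Prdx6. Their intervals did not overlap between the sides, but neither did those of Prdx1 for the hypoxic gate. For Prdx2 the sides of the interferon gate had overlapping intervals, at -0.52 in and -0.58 outside it. Txnrd1 had 0.86 in interferon-marked cells (interval 0.43 to 1.36, from 43 control counts) and 0.27 in the others (0.15 to 0.39). Txnrd1, Txnip, Prdx1, Prdx2, Prdx4 and Prdx6 kept their direction in and outside the 3 gates. So did Srxn1, whose interval crossed 0 in interferon-marked cells (-0.09 to 1.59). Txn1 did not keep its direction, with 0.08 in interferon-marked cells (interval 0.02 to 0.14) and -0.10 in the others (-0.12 to -0.08). Prdx5 had 0.11 in mitotic cells (0.06 to 0.15) and -0.12 in the others (-0.15 to -0.08). Prdx3 was lower outside the mitotic gate (-0.20, interval -0.29 to -0.11) and outside the interferon gate (-0.25, -0.34 to -0.17), and inside both its interval crossed 0. For the hypoxic gate the Prdx3 interval crossed 0 on both sides, at -0.10 in (-0.23 to 0.04) and 0.07 outside it (-0.01 to 0.16). Txn1 had 0.00 in hypoxic cells (-0.03 to 0.03) and 0.07 in the others (0.04 to 0.09).

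**Figure D4:**
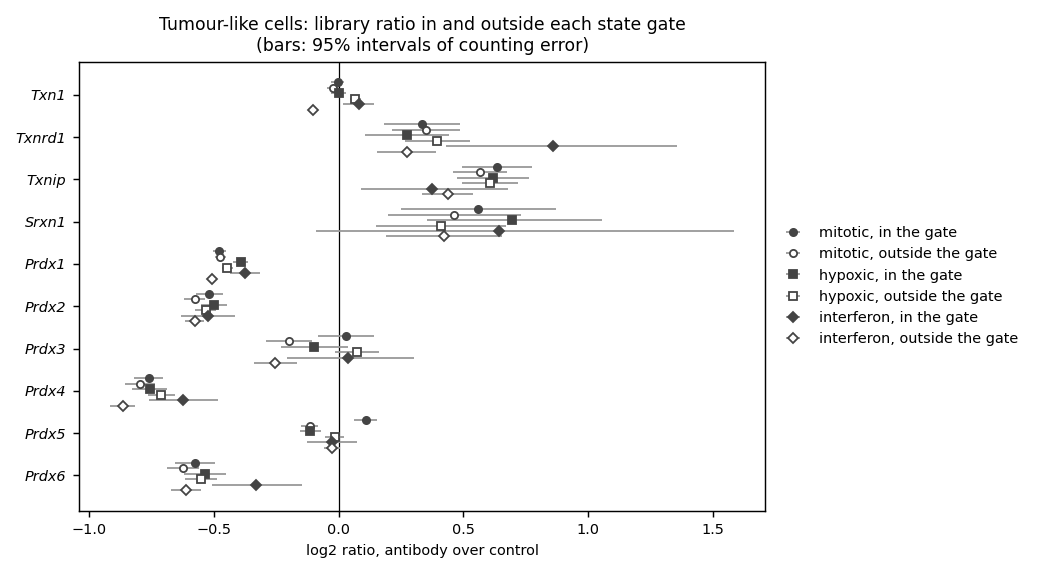
Log2 ratio of the antibody over the control library (x axis) for each gene (y axis) among tumour-like cells in (filled) and outside (open) each of 3 state gates; bars are 95% intervals of counting error. Prdx1, Prdx2, Prdx4 and Prdx6 lie left of 0 and Txnrd1 and Txnip right of 0 on both sides of every gate.

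Macrophage-like cells with UMIs of the NRF2 targets Nqo1, Gclm, Hmox1 or Gclc (164 control, 194 antibody cells, at 500 UMIs per cell) had more Prdx1 than the others in both libraries. The levels were 2361 against 1936 CPM in the control (log2 ratio 0.29, interval 0.20 to 0.37) and 2251 against 1771 CPM in the antibody library (0.35, interval 0.28 to 0.41). Txnrd1 was higher in the control cells of this gate, 61.7 against 34.5 CPM (0.85, interval 0.26 to 1.39), and not in the antibody cells, 72.9 against 72.5 CPM (0.02, interval -0.36 to 0.37). Srxn1 had 13 and 19 counts in and outside the gate in the control (1.53, interval 0.37 to 2.61) and 16 and 41 in the antibody library (0.63, interval across 0). Mitotic macrophage-like cells had more Prdx4 than the others, as mitotic tumour-like cells did, with log2 ratios of 0.73 and 0.45.

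Prdx1 to Prdx4 had similar patterns over the cell classes. Over 14 class sums (7 classes in 2 libraries, which share library and depth), Pearson's r of log2(CPM + 1) was 0.92 between Prdx2 and Prdx3, 0.88 between Prdx1 and Prdx3, 0.88 between Prdx2 and Prdx4 and 0.85 between Prdx1 and Prdx2. It was 0.79 between Prdx1 and Prdx4 and 0.68 between Prdx3 and Prdx4. Txnip ran opposite to Prdx3, at -0.71. These are descriptions over classes of unequal depth, and the control fibroblast-like sum among them held tumour genes near the tumour-like level (above). Among 8769 genes with a mean of at least 10 CPM, the 3 most like Prdx1 were Pdia6 (0.95), Iftap (0.95) and Psmd7 (0.94), and those most like Prdx4 were Anxa5, Emp1 and Ctsl (0.92 to 0.91). Those most like Prdx5 were Tgfbi, Zeb2 and Zeb2os, each at 0.95, and those most like Prdx3 were Mmadhc (0.96), Ndufv2 and 1110059E24Rik (both 0.95). Arpc1a, Lgals1 and Mgst3 were most like Prdx2 (0.95 to 0.93), and Rassf8, Rab11fip5 and Klhl9 most like Srxn1 (0.95 to 0.93). Srxn1 had 0 counts in control T-like, NK-like and neutrophil-like cells. It had 1 count each in control monocyte-like, antibody NK-like and antibody neutrophil-like cells. Its r values thus rest partly on sums with almost no counts. For Txnrd1 they were Antxr2, Tnfaip2 and F3 (0.91 to 0.89), for Txnip Marchf3, Tut7 and Birc3 (0.88 to 0.85), for Prdx6 Krit1, Tlk2 and Pcgf1 (0.85 to 0.84) and for Txn1 Trappc5, AA467197 and Nefm (each 0.79).

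Of 25 other disulfide reductases and thioredoxin-fold proteins read in tumour-like cells, 5 were at least 2-fold higher and 0 at least 2-fold lower in the antibody library, against 11.0% and 4.36% of all genes. They were Glrx2, a mitochondrial glutaredoxin (7.02 and 43.8 CPM, log2 ratio 2.64), Ero1a, the oxidase that feeds disulfides into the endoplasmic reticulum (118 and 534 CPM, 2.18), Pdia3, a disulfide isomerase (159 and 637 CPM, 2.01), Txnrd2, the mitochondrial thioredoxin reductase (7.02 and 14.8 CPM, 1.08), and Txnl1 (171 and 357 CPM, 1.06). The same 5 genes were at least 2-fold higher in macrophage-like cells, with Txnrd2 at 1.11 from 26 and 95 counts, and 3 others of the 25 read there were at least 2-fold lower, against 8.54% and 5.16% of all genes. Those were Msrb2 (-1.25), Qsox1 (-1.22) and Txndc12 (-1.03). The list median in macrophage-like cells was 0.01, against -0.18 over all genes. In tumour-like cells it was -0.20, also against -0.18 over all genes. Txn2, the mitochondrial thioredoxin, had 213 and 161 CPM (-0.41), and Gsr, glutathione reductase, 16.1 and 12.6 CPM (-0.35).

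No gene of the NRF2 list was called in tumour-like cells (0 of 16, median -0.26, 4 above 0), where Gclc, the catalytic subunit of glutathione synthesis, had a log2 ratio of 0.22, Gclm, its partner, -0.37, and Hmox1, haem oxygenase, 0.10. Of 9 other peroxide and superoxide enzymes 4 were called higher and 0 lower (median -0.24), beside the 11.0% and 4.36% of all genes. Those with 100 counts were Sod2, the mitochondrial superoxide dismutase (41.5 and 125 CPM, log2 ratio 1.59), and Gpx3, a secreted glutathione peroxidase (1.40 and 4.68 CPM, 1.73). Of 11 genes for selenoproteins and their synthesis 3 were called higher and 0 lower (median 0.17), beside the same 11.0% and 4.36%: Trnau1ap (12.0 and 87.8 CPM, 2.87), Sephs2, which makes the selenium donor (1.95 and 11.3 CPM, 2.52), and Pstk (10.0 and 28.0 CPM, 1.48). Other classes had such calls too. In macrophage-like cells 3 of the 11 were called higher and 0 lower (median -0.04), against 8.54% and 5.16% of all genes. In T-like cells 3 of 11 were higher and 1 lower (median 0.46), against 10.9% and 8.28%, and in neutrophil-like cells 0 of 3 were called. In tumour-like cells none of 7 Txnip relatives and regulators (median -0.06) and none of the 3 ribonucleotide reductase subunits, which take electrons from thioredoxin (median -0.35), was called in either direction (0 genes).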

How the data were processed

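Enzyme-dissociated tumours went through a 10x 3' library kit, per the labels' protocols. UMI counts of genes by barcodes form the 2 deposited tables, and Cell Ranger 7.2.0, Seurat and mm10 are named in the submitters' processing notes. A gene missing from a table counted as 0. A cell was kept if it had 200 genes, 500 UMIs and less than 20% of them mitochondrial, and Scrublet (scanpy 1.11.5) removed the top-scoring 0.8% per 1000 cells as doublets (1537 and 1164). Marker genes were listed first, and gate minimums were set after marker counts were seen. Counts were summed per class and library, and log2 ratios of shares of the class total had 0.5 added to each count. Intervals are 95%: exact Poisson for levels, exact conditional binomial for ratios. A call is a 2-fold ratio with at least 20 counts over both libraries. Intervals cover counting error only. The ratio code was tested on simulated counts. Positions and exons are from GENCODE M21, sequences from RefSeq.

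Members and gene lists were chosen with earlier results of these data known. Named genes were all members in compared classes, list genes at least 2-fold different in tumour-like cells with 100 counts (at most 5 per direction), and the 3 genes most like each member. List genes named without a call, neighbours of members, smaller classes and state results were chosen after their values were seen. No free RNA correction was made. Versions were pandas 2.3.3, numpy 2.4.6, scipy 1.17.1 and matplotlib 3.10.9 in Python 3.11.15.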

Additional observations from a re-analysis of the deposited data

Results flagged for a closer look

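Txn1, Prdx1 and Prdx5 had intervals on opposite sides of 0 in 2 or more classes, and these differences between classes were not tested. The antibody over control log2 ratio of Txn1 was 0.57 in macrophage-like and -0.29 in neutrophil-like cells. That of Prdx1 was 1.14 in neutrophil-like cells, against -0.48 in tumour-like and -0.11 in macrophage-like cells. The neutrophil-like Prdx1 ratio was 0.02 without doublet removal, and the macrophage-like one was 0.07 under median-of-ratios scaling. For Prdx5 the log2 ratio was 0.29 in macrophage-like and -0.63 in neutrophil-like cells.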

How the results depend on the processing

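No paired analysis was possible because each group has 1 library, and no replicate could be left out. The stricter cell filter and thinning left too few control neutrophil-like cells, and NK-like, CD8 T-like and fibroblast-like medians were not compared since a library had under 100 cells. The member median in tumour-like cells (-0.06) was -0.126 with cells thinned to 1000 UMIs and 0.116 under median-of-ratios scaling, which also gave 0.069 in macrophage-like cells (main value -0.11). By its construction this scaling subtracts the class median of all genes from every ratio. The neutrophil-like Prdx2 ratio of 1.15 was -0.135 without doublet removal, and the cause was not tested. Over 36 single member ratios, 20 kept their sign in every alternative run, and 16 changed it in at least 1. In tumour-like cells Txnrd1 (0.02 to 0.62), Txnip (0.43 to 0.81), Prdx1 (-0.54 to -0.30), Prdx2 (-0.62 to -0.37), Prdx4 (-0.87 to -0.62) and Prdx6 (-0.72 to -0.42) kept theirs. The ranges include a tumour-like gate without the keratin rule (10537 and 7077 cells), chosen after seeing the data. The lowest Txnrd1 value came from cells with no UMI of other classes' markers (1717 and 311 cells). The share of genes at least 2-fold lower in tumour-like cells was 18.0% with no count minimum (higher: 18.8%), 2.10% at 100 counts and 2.54% under median-of-ratios scaling. In macrophage-like cells that share was 16.4%, 3.15% and 2.95%, and in T-like cells 31.9%, 2.70% and 5.40%. In neutrophil-like cells it was 21.6% with no count minimum. Depth limits Srxn1 in lymphoid and Prdx3 and Prdx4 in neutrophil-like cells.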
